A study of Rattus norvegicus with 15 samples.

Results

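This account compares multifidus muscle of rats given plasma-derived mitochondria together with vitamin D after spinal surgery (the pMT/VitD group, 4 libraries) with muscle of rats that had the surgery alone (the surgery group, 2 libraries), across every gene. Libraries were chosen by their labels, 6 of 15 in the series. Total RNA of wild-type multifidus, a deep muscle along the spine, was read by paired-end sequencing in 5 groups, and the remaining libraries are 2 of control rats without surgery, 4 of rats given pMT alone and 3 of rats given vitamin D alone. Surgery was a hemilaminectomy with ligation of the left L5 spinal nerve, which injures the muscle and removes part of its nerve supply. All groups were of male Sprague Dawley rats aged 12 weeks. The methods give injection of pMT on day 14 and tissue on day 28 after surgery for the pMT group and tissue on day 28 for surgery, but the sources used here give no days for the pMT/VitD group. Each of 2 sites in the left paraspinal muscle received 25 µg of pMT, mitochondria isolated from human plasma and held in SHE buffer, with 150 µg (6000 IU) of cholecalciferol, which came to 50 µg and 300 µg per rat. The surgery rats received no treatment, so the injection and its buffer cannot be told apart from pMT and vitamin D here. Nothing in the labels says that the libraries of a group come from separate animals, so each p-value measures the spread between these libraries.

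A muscle fibre that loses its nerve switches on genes of the developing fibre, among them subunits of the acetylcholine receptor, the transcription factor myogenin and embryonic myosin, and injured muscle also gathers macrophages and lays down collagen. Mitochondria supply most of the ATP of a resting fibre through the respiratory chain, whose subunits come from both the nuclear and the mitochondrial genome. Cholecalciferol is the precursor of a hormone that acts through the nuclear vitamin D receptor.

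Total counts were 52342134 to 62249505 in the pMT/VitD libraries and 65642999 and 69303658 in the surgery libraries, and levels are given in CPM, counts scaled to library size and TMM factors. Protein-coding genes of the mitochondrial genome, 13 in number, held 17.7%, 13.5%, 16.5% and 11.5% of counts in pMT/VitD replicates 1 to 4, against 10.7% and 11.2% in surgery. The surgery libraries lay closer together than any other pair of one group, with an SD of their log2 ratios over genes of 0.0636, and VitD replicate 2 lay nearly as close to surgery replicate 2 (0.0821). pMT/VitD replicate 4 stood apart from its group. Its distance to the other 3 was 0.371 to 0.479, against 0.164 to 0.342 among those 3, and its nearest library was control replicate 1 (0.166). pMT replicate 4 was in turn nearest to pMT/VitD replicate 1 (0.178). An exchange of labels between these 2 libraries was not tested, and the labels were kept as given. If it had occurred, values without pMT/VitD replicate 4 would leave out a library of another group, and the comparison with pMT would mix both groups. Results are therefore given with and without pMT/VitD replicate 4. Change against surgery also followed gene length in some libraries. Each library's deviation from the surgery mean was set against a relative transcript length over genes. The rank correlation was -0.461, -0.429, -0.242 and 0.129 in pMT/VitD replicates 1 to 4. In surgery it was -0.12 and 0.12, which mirror each other because that mean is of these 2 libraries. The muscle markers Ckm, Acta1, Myh4 and Tnnt3 summed to 133116 to 158759 CPM in pMT/VitD and 103045 to 106098 CPM in surgery, the level of skeletal muscle. The neuron markers Snap25, Nefl and Rbfox3 were listed at 0 in all 6 libraries.

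Of 17201 genes with enough counts, 413 were higher (2.4%) and 866 lower (5.03%) in pMT/VitD than in surgery by edgeR's quasi-likelihood F-test at a Benjamini-Hochberg adjusted p under 0.05, 7.44% in all. The words rose and fell mark such called genes only. The median log2 fold change was 0.623 among the genes that rose and -0.901 among those that fell, beside -0.00156 over all genes tested. Estimates were negative in 50.1% of all genes tested. A change of at least 2-fold was met by 66 of the genes that rose and 356 of those that fell. In all 1279 called genes every pMT/VitD library lay beyond both surgery libraries, a pattern that 6325 of the genes tested (36.8%) also showed. The study's methods define DEGs by fold change and p in an exact test and do not say plainly whether that p is the adjusted one. On these 6 libraries, with a fold change of at least 2, 870 of 16317 genes qualified at an unadjusted p under 0.05 (5.33%), and 415 of the called genes were among them. At an adjusted p under 0.05 the count was 595, with 135 higher and 460 lower. Leaving out pMT/VitD replicate 4 gave 868 higher genes (5.04%) and 1331 lower genes (7.74%), 12.8% of 17206 in all, and 1218 of the 1279 genes were among them in the same direction. Without pMT replicate 4 as well, which enters through the shared estimate of spread, 3462 genes were called (20.1%). Without pMT/VitD replicate 1, 2 or 3 the count was 684, 598 and 967. It was 129 without surgery replicate 1 and 122 without surgery replicate 2, where the lone surgery library was taken to vary like the other groups. Scaling to library size alone moved the median of all genes to -0.325 and the split to 98 higher and 3152 lower. The split was 856 higher and 921 lower with the trend with gene length taken out, and 1081 higher and 1168 lower by DESeq2.

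**Figure D1:**
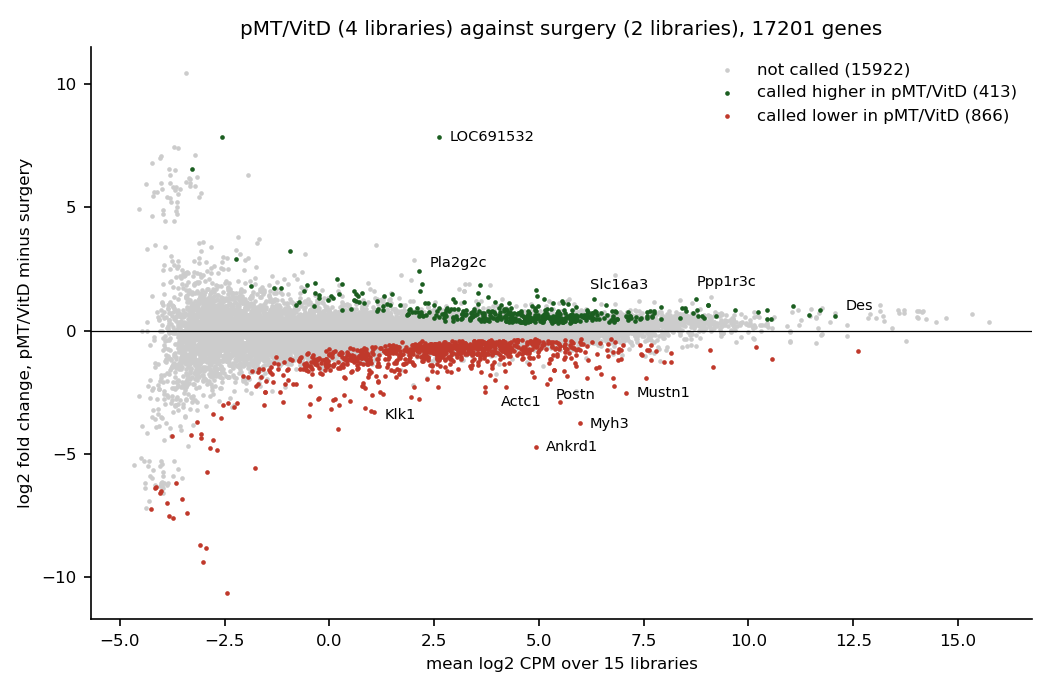
Each dot is one of 17201 genes, with its mean level (log2 CPM over 15 libraries) on the x axis and its log2 fold change, pMT/VitD minus surgery, on the y axis; dark green dots were called higher (413) and red dots lower (866). The median of the lower genes (-0.901) lies further from 0 than that of the higher genes (0.623).

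Ankrd1, Myh3, Klk1 and Actc1 led the 10 called genes that fell furthest, leaving out genes whose log2 CPM averaged under 1. Ankrd1, an ankyrin repeat protein of the sarcomere that muscle makes under stretch or denervation, stood at 244 and 253 CPM in surgery and at 7.93, 8.47, 7.07 and 14.3 CPM in pMT/VitD (log2 fold change -4.71, SE 0.58, adjusted p = 0.000999). Myh3, the embryonic myosin heavy chain, was at 326 and 335 CPM in surgery and 22.3, 16.9, 27.8 and 30.9 CPM in pMT/VitD (log2 fold change -3.75, SE 0.67, adjusted p = 0.00604). Actc1, the cardiac actin that fetal skeletal muscle also makes, was at 186 and 178 CPM against 28.7, 31.8, 16.8 and 21.1 CPM (log2 fold change -2.89, SE 0.42, adjusted p = 0.0021). In these genes of the developing or stretched fibre all 4 pMT/VitD libraries lay far below both surgery libraries, and replicate 4 lay with the others. Mustn1, a small nuclear protein of developing muscle and bone, was the most abundant of the 10 in surgery, at 414 and 404 CPM in surgery and 70.8, 78.95, 65.8 and 71.5 CPM in pMT/VitD (log2 fold change -2.51, SE 0.23, adjusted p = 6.46e-05). The remaining 6 were secreted or immune products and an RNA without a protein. Klk1, a tissue kallikrein that releases kinins, was at 9.61 and 9.72 CPM against 1.297, 1.13, 0.817 and 0.662 CPM (log2 fold change -3.31, SE 0.40, adjusted p = 0.000684). Sema3a, a secreted cue that repels growing axons, was at 5.79 and 6.902 CPM against 1.25, 0.723, 1.05 and 1.48 CPM (log2 fold change -2.49, SE 0.32, adjusted p = 0.001). Both were low in every pMT/VitD library, and the same held for Wisp2 (-2.70), a matricellular protein, Serpina3n (-2.55), a serine protease inhibitor, RGD1564861 (-2.60), an immunoglobulin kappa variable segment, and RGD1311744 (-2.76), as log2 fold changes.

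Among genes that rose, LOC691532, listed by RefSeq as a pseudogene of the ribosomal protein gene Rps25, went furthest, from 0.194 and 0.177 CPM in surgery to 53.9, 60.2, 33.8 and 27.6 CPM in pMT/VitD (log2 fold change 7.87, SE 0.60, adjusted p = 2.01e-05). Its reads cannot be told apart with certainty from those of near-identical copies. The 5 surgery and VitD libraries all lay at 0.16 to 0.19 CPM, and the 10 control, pMT and pMT/VitD libraries at 18.9 to 60.2 CPM. The low set includes treated VitD rats and the high set untreated control rats. What parts these 2 sets of libraries was not tested, and anything else shared within a set cannot be told apart from treatment here. Pla2g2c, a secreted phospholipase A2, was at 1.796 and 1.8004 CPM in surgery and 10.4, 12.5, 6.47 and 9.38 CPM in pMT/VitD (log2 fold change 2.43, SE 0.56, adjusted p = 0.0218). Slc25a25, a carrier that moves ATP-Mg and phosphate across the inner mitochondrial membrane, was at 14.3 and 14.4 CPM against 49.98, 38.2, 73.02 and 20.9 CPM (log2 fold change 1.66, SE 0.37, adjusted p = 0.0181). The 4 pMT/VitD libraries spread widely in Slc25a25, with replicate 4 lowest and replicate 3 highest, and all above surgery. Gbp1, an interferon-induced GTPase, spread as widely, at 29.8, 40.8, 8.75 and 18.2 CPM against 6.54 and 6.77 CPM in surgery (log2 fold change 1.87, SE 0.47, adjusted p = 0.0308). Here replicate 3 lay close to surgery. Mettl11b, an N-terminal methyltransferase, was at 1.81 and 2.13 CPM against 9.66, 8.81, 6.41 and 4.32 CPM (log2 fold change 1.89, SE 0.40, adjusted p = 0.014). Ush1c, a scaffold protein of sensory and gut epithelia, was at 1.76 and 1.23 CPM against 4.11, 5.08, 4.02 and 3.37 CPM (log2 fold change 1.47, SE 0.26, adjusted p = 0.00572). The others of the 10 were LOC100912629, RGD1304963, RGD1561916 and Ccdc92, with log2 fold changes of 1.62, 1.54, 1.43 and 1.39.

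**Figure D2:**
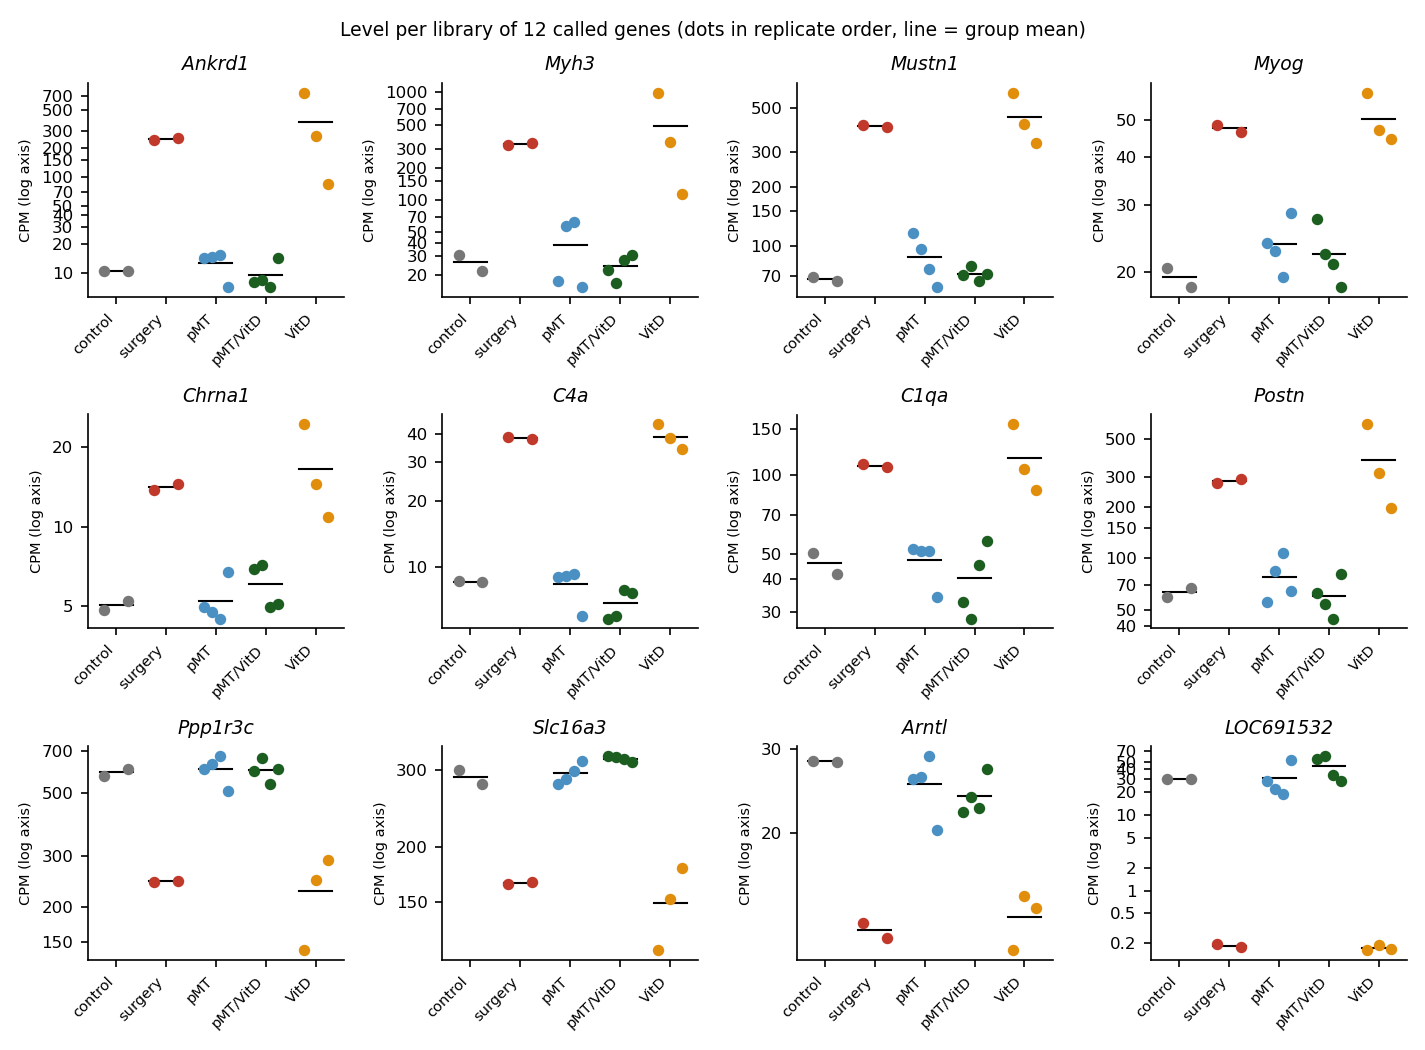
Level of 12 called genes in each of 15 libraries, in CPM on a log axis, with one dot per library in replicate order and a line at the group mean. In each gene the 4 pMT/VitD libraries (dark green) lie on one side of both surgery libraries (red), near the control and pMT libraries.

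Genes of the denervated fibre were among those that fell. Of 16 genes known to be induced by denervation, 7 fell and none rose, beside 5.03% of all genes that fell. Their median log2 fold change was -0.86. Without pMT/VitD replicate 4 also 7 fell, beside 7.74% of all genes. Leaving out either surgery library left 3. Myogenin (Myog), the transcription factor that drives late muscle differentiation, was at 48.7 and 46.6 CPM in surgery and 27.6, 22.3, 21.1 and 18.3 CPM in pMT/VitD (log2 fold change -1.09, SE 0.16, adjusted p = 0.00246). Runx1, a transcription factor of denervated fibres, was at 20.99 and 21.8 CPM against 9.62, 7.601, 5.68 and 10.02 CPM (log2 fold change -1.38, SE 0.28, adjusted p = 0.0118). Both genes kept all 4 pMT/VitD libraries at around one level, well below surgery. Cdkn1a, an inhibitor of the cell cycle, fell from 55.6 and 54.1 CPM to 13.3, 13.98, 10.5 and 7.96 CPM (log2 fold change -2.26, SE 0.34, adjusted p = 0.00257). Fbxo30, a ubiquitin ligase of atrophying muscle (-0.70), and Dclk1, a kinase of the microtubule (-1.42), fell as well (log2 fold changes), and Ankrd1 is the sixth. The seventh, Gdf5, a BMP family growth factor, was at 0.556 and 0.614 CPM in surgery and had reads in pMT/VitD replicate 4 alone, at 0.117 CPM. The ubiquitin ligase Trim63, a usual marker of atrophy, was at 304 and 297 CPM in surgery and 382, 353, 319 and 282 CPM in pMT/VitD (log2 fold change 0.15, adjusted p = 0.611). It did not pass the test, and its groups overlap in replicate 4.

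Of 16 genes of the acetylcholine receptor and neuromuscular junction, 5 fell and none rose (median log2 fold change -0.27), with 5 also without pMT/VitD replicate 4 and 0 without either surgery library. Over all genes 5.03% fell, and 7.74% without pMT/VitD replicate 4. Among the 5 of this list were the receptor subunits Chrna1, Chrnd and Chrng and the adhesion molecule Ncam1. Chrna1, which carries most of the binding site for acetylcholine, was at 13.8 and 14.5 CPM in surgery and 6.94, 7.17, 4.99 and 5.12 CPM in pMT/VitD (log2 fold change -1.22, SE 0.25, adjusted p = 0.0131). Chrng, the subunit of the fetal receptor, was at 2.05 and 1.34 CPM against 0.5402, 0.445, 0.323 and 0.195 CPM (log2 fold change -2.17, SE 0.53, adjusted p = 0.0267). Chrnd was at 11.99 and 11.6 CPM against 4.78, 5.64, 4.64 and 2.86 CPM (log2 fold change -1.40, SE 0.36, adjusted p = 0.0344). Replicate 4 was the lowest or close to the lowest of the 4 in these subunits. Chrnb1, a subunit shared by the fetal and adult receptors, was at 34.8 and 35.1 CPM against 32.6, 34.4, 29.6 and 30.6 CPM and was not called (log2 fold change -0.14, adjusted p = 0.39). Ncam1 was at 26.5 and 26.1 CPM against 12.3, 11.4, 11.7 and 11.7 CPM (log2 fold change -1.16, SE 0.21, adjusted p = 0.00547). The adult junction genes Ache, the enzyme that breaks down acetylcholine, and Scn4a, the adult sodium channel, lay on both sides of surgery. Ache was at 37.9, 39.004, 57.4 and 72.1 CPM in pMT/VitD against 55.3 and 55.3 CPM, and Scn4a at 48.8, 51.6, 104 and 139 CPM against 67.8 and 70.4 CPM, with replicates 1 and 2 below surgery and replicates 3 and 4 above it or level with it.

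The promoters of the receptor subunits hold the E-box, CANNTG on both strands, that myogenin and its relatives bind. The 100 bases before the annotated start are shown for the 3 subunits that fell, for Myog itself and for the uncalled Chrnb1 as the contrast, from RefSeq on the GRCr8 assembly, 5′ to 3′ on the strand of the gene, with E-boxes in capitals. The files themselves were made on rn6, so these positions are not those of the counts. The stretches lie at chr3:78877354-78877453 (Chrna1, minus strand), chr9:95310216-95310315 (Chrnd, plus), chr9:95325884-95325983 (Chrng, plus), chr13:48297376-48297475 (Myog, plus) and chr10:55015108-55015207 (Chrnb1, minus), each just upstream of the first exon.
Chrna1: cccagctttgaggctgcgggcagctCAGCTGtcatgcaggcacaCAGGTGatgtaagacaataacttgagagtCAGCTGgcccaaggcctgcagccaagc
Chrnd: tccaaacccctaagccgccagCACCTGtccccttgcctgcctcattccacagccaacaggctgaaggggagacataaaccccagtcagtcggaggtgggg
Chrng: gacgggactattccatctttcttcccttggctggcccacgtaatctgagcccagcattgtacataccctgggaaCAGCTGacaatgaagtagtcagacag
Myog: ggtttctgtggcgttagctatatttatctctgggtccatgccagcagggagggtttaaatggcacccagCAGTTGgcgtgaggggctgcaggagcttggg
Chrnb1: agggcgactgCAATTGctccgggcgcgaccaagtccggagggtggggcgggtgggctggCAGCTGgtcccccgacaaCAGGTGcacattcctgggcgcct
Chrna1 and the uncalled Chrnb1 hold 3 E-boxes each in this stretch, and Chrnd, Chrng and Myog hold 1 each. Chrnd and Chrnb1 also hold a CATTCC motif, which TEAD factors bind. Of the 16 genes of the list 11 had a promoter in the RefSeq table, and 6 of the 11 (54.5%) hold an E-box in these 100 bases, as do 33.7% of all 27457 promoters. Over 300 bases the shares are 90.9% and 71.6%. A match describes the letters and is not a site shown to be bound, and the uncalled Chrnb1 holds as many as any of those printed.

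The next counts stand beside 2.4% of all genes that rose and 5.03% that fell, or 5.04% and 7.74% without pMT/VitD replicate 4. Of 8 genes of the developmental sarcomere, 3 fell, namely Myh3, Actc1 and Tnnt2, the cardiac troponin T of fetal muscle (median -0.41 over the 8). The count was 3 without pMT/VitD replicate 4 and 1 without either surgery library. Tnnt2 was at 19.8 and 19.2 CPM in surgery and 5.42, 6.17, 2.19 and 2.34 CPM in pMT/VitD (log2 fold change -2.27, SE 0.48, adjusted p = 0.0155). Myh8, the perinatal myosin, split the group, with replicates 1 and 2 at 72.9 and 81.5 CPM and replicates 3 and 4 at 191 and 187 CPM, level with surgery at 183 and 188 CPM. Mybph, a myosin binding protein, split it the other way, at 1013 and 1088 CPM in replicates 1 and 2 and 34.6 and 51.1 CPM in replicates 3 and 4, against 112 and 116 CPM in surgery. Neither passed the test. These genes share sequence with paralogs and their counts are uncertain to that extent. Among 21 satellite cell and myogenic genes, Myog, Heyl and Megf10 fell and Des rose (median -0.18). Without either surgery library 1 still fell and none rose. Heyl, an effector of Notch signalling, was at 20.7 and 21.9 CPM against 15.1, 12.6, 14.3 and 14.03 CPM (log2 fold change -0.60, SE 0.11, adjusted p = 0.006). Des, desmin, the intermediate filament that ties the sarcomeres together, was among the most abundant genes that rose, at 3592 and 3574 CPM in surgery and 5124, 5717, 4985 and 5749 CPM in pMT/VitD (log2 fold change 0.59, SE 0.16, adjusted p = 0.0361). Of 17 genes of stretch and Z-disc stress, Des rose and Ankrd1 fell (2 fell without pMT/VitD replicate 4). A single gene of 17 is near the shares of all genes.

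Macrophage genes had the highest share of called genes among the 44 lists with all libraries, while the medians of T cell and fibrillar collagen genes were lower. Of 25 tested, 22 fell and none rose, beside the 5.03% of all genes that fell, and their median log2 fold change was -1.001. The count was 22 without pMT/VitD replicate 4, and 2 without either surgery library, where complement kept 6 of 29. C1qa, a chain of the complement starter C1q that tissue macrophages make, was at 110.0 and 107 CPM in surgery and 32.6, 28.3, 45.1 and 55.7 CPM in pMT/VitD (log2 fold change -1.42, SE 0.26, adjusted p = 0.00589). Adgre1, the F4/80 antigen, was at 15.3 and 15.8 CPM against 4.24, 4.56, 4.75 and 7.75 CPM (log2 fold change -1.55, SE 0.23, adjusted p = 0.00249). In both genes replicate 4 was the nearest to surgery of the 4, and still lay below it. Gpnmb, a glycoprotein of phagocytes, was at 25.5 and 26.4 CPM against 9.55, 9.92, 5.68 and 7.36 CPM (log2 fold change -1.67, SE 0.29, adjusted p = 0.00492). Lyz2, lysozyme, was at 157 and 159 CPM against 83.99, 81.6, 65.2 and 76.1 CPM (log2 fold change -1.04, SE 0.19, adjusted p = 0.00589). Fcgr2b, an inhibitory Fc receptor (-1.82), and Mpeg1, a pore-forming protein of phagocytes (-1.35), fell as well. The 5 markers Cd68, Csf1r, Cd163, Mrc1 and Adgre1 were all called lower and summed to 62.1 to 114 CPM in pMT/VitD, against 170.2 to 171 CPM in surgery and 102 to 103 CPM in control. In whole muscle a smaller number of macrophages and less RNA per macrophage cannot be told apart.

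Complement and antigen presentation went the same way. The counts stand beside 5.03% of all genes that fell and 2.4% that rose, and 7.74% and 5.04% without pMT/VitD replicate 4. Of 29 complement genes 12 fell and 1 rose (median -0.64), 15 against 1 without pMT/VitD replicate 4, and 6 lower without either surgery library. C4a, the fourth component, was at 38.9 and 38.01 CPM in surgery and 5.86, 6.02, 7.89 and 7.67 CPM in pMT/VitD (log2 fold change -2.49, SE 0.17, adjusted p = 7.6e-06). C4b, its near-identical copy, was at 96.5 and 91.04 CPM against 13.2, 15.3, 21.9 and 32.5 CPM (log2 fold change -2.18, SE 0.33, adjusted p = 0.00246). Reads may have been split between this pair. C6, a part of the membrane attack complex, was at 6.63 and 6.57 CPM against 0.7995, 0.371, 1.23 and 0.623 CPM (log2 fold change -3.14, SE 0.45, adjusted p = 0.002). C4a, C4b and C6 were low in every pMT/VitD library. C7 was at 101 and 108 CPM against 15.9, 15.6, 40.3 and 44.1 CPM (log2 fold change -1.85, SE 0.39, adjusted p = 0.0138), with replicates 3 and 4 higher than replicates 1 and 2. C3, the central component, fell as well (log2 fold change -1.91). Masp1, a protease of the lectin pathway, rose from 86.5 and 89.4 CPM to 147, 152, 159.8 and 136 CPM (log2 fold change 0.76, SE 0.18, adjusted p = 0.0245). Of 10 MHC class II genes 7 fell and none rose (median -0.79), 7 without pMT/VitD replicate 4 and 2 without either surgery library. Cd74, the invariant chain, was at 436 and 429 CPM against 231, 199.6, 215 and 269 CPM (log2 fold change -0.92, SE 0.14, adjusted p = 0.0021). Ciita, the transactivator that switches the class II genes on, was at 3.502 and 3.51 CPM against 1.62, 1.39, 1.42 and 1.97 CPM (log2 fold change -1.13, SE 0.18, adjusted p = 0.00295). The chains themselves fell too, but belong to a family of close copies. Their values include -0.99 for RT1-Bb, whose replicate 4 was at 53.3 CPM against 67.0 and 68.5 CPM in surgery, and -0.77 for RT1-Da, as log2 fold changes. None of 18 genes of MHC class I processing passed the test (median -0.11, 1 higher without pMT/VitD replicate 4). B2m, its light chain, was at 464 and 465 CPM against 456, 469.8, 365 and 349 CPM.

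Fewer lymphocyte and cytokine genes passed, beside 5.03% of all genes that fell and 50.1% with negative estimates. Of 18 T cell and NK cell genes all had negative estimates (median -1.11) and 1 fell, Cd4, which macrophages of the rat also make, at 61.9 and 61.6 CPM in surgery and 22.7, 18.7, 31.2 and 39.3 CPM in pMT/VitD (log2 fold change -1.14, SE 0.22, adjusted p = 0.00739). It was 3 without pMT/VitD replicate 4 and 0 without either surgery library. The T cell markers Cd3e, Cd3d, Cd3g and Cd8a together reached 1.60 to 2.17 CPM in surgery and 0.389 to 1.10 CPM in pMT/VitD. At this level Lck, a kinase of the T cell receptor, was at 1.36 and 1.12 CPM against 0.519, 0.501, 0.602 and 0.603 CPM (log2 fold change -1.15, adjusted p = 0.0722). None of 11 B cell and plasma cell genes passed (2 without pMT/VitD replicate 4), and the 5 markers summed to at most 2.41 CPM. Of 28 chemokines and cytokines 2 fell (6 without pMT/VitD replicate 4, 2 without either surgery library). Cxcl13, which draws B cells, was at 2.49 and 2.13 CPM against 0.173, 0.222, 0.409 and 0.3698 CPM (log2 fold change -2.97, SE 0.39, adjusted p = 0.00108). Ccl6, a chemokine of macrophages, was at 18.9 and 20.4 CPM against 6.03, 5.26, 8.58 and 8.02 CPM (log2 fold change -1.495, SE 0.20, adjusted p = 0.00118). Of 27 interferon-stimulated genes the antiviral Mx1 (-0.83), Mx2 (-0.67) and Rsad2 (-0.57) fell, and Cmpk2, a mitochondrial nucleotide kinase, rose (0.67), with no call without either surgery library. None of 14 neutrophil and mast cell genes was called (1 in each direction without pMT/VitD replicate 4). The mast cell protease Cpa3 was at 2.62 and 2.96 CPM in surgery and 4.39, 3.56, 6.21 and 6.19 CPM in pMT/VitD (log2 fold change 0.86, adjusted p = 0.0725).

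Some matrix genes fell in each class examined, fewest in basement membrane and other collagens (2 of 21), beside the 5.03% of all genes that fell. Of 13 genes of the fibrillar collagens and those that associate with fibrils, 7 fell and none rose (median -1.03), 7 against 1 without pMT/VitD replicate 4, and 1 fell without either surgery library. Col3a1, the chain of type III collagen, was at 2366 and 2377 CPM in surgery and 1009, 853, 1088 and 1310.2 CPM in pMT/VitD (log2 fold change -1.15, SE 0.23, adjusted p = 0.0106). Col1a1 was at 1070.1 and 1047 CPM against 358, 309, 351 and 524 CPM (log2 fold change -1.46, SE 0.29, adjusted p = 0.00971). Its partner in type I collagen, Col1a2, was at 424 and 428 CPM against 173, 149, 171 and 219 CPM (log2 fold change -1.26, SE 0.24, adjusted p = 0.00839). In these collagen chains pMT/VitD replicate 4 was the nearest to surgery. Of 29 proteoglycans and matricellular proteins 15 fell and none rose (median -0.84), also 15 without pMT/VitD replicate 4, and 5 and 3 without surgery replicates 1 and 2. Postn, periostin, which fibroblasts secrete into healing tissue, was at 278 and 294 CPM against 62.7, 53.9, 44.3 and 80.7 CPM (log2 fold change -2.24, SE 0.35, adjusted p = 0.00271). Tnc, tenascin C, was at 13.5 and 13.5 CPM against 6.12, 5.52, 2.75 and 2.35 CPM (log2 fold change -1.68, SE 0.42, adjusted p = 0.0303). Thbs4, a thrombospondin of tendon and muscle, was at 220.1 and 214 CPM against 98.1, 74.2, 45.6 and 38.4 CPM (log2 fold change -1.76, SE 0.49, adjusted p = 0.0438). Tnc and Thbs4 were higher in replicates 1 and 2 than in 3 and 4, and below surgery in all, and Thbs4 was not called without replicate 4 (adjusted p = 0.0625). Elastin (Eln) was at 157 and 158 CPM against 48.6, 43.9, 70.2 and 60.3 CPM (log2 fold change -1.499, SE 0.28, adjusted p = 0.00655). The abundant Dcn, decorin, overlapped between the groups, at 627 and 657 CPM against 539, 552, 627 and 692 CPM, and did not pass (log2 fold change -0.09, adjusted p = 0.744).

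Enzymes that process collagen also fell, beside 5.03% of all genes, and 7.74% without pMT/VitD replicate 4. Of 33 matrix enzymes and crosslinkers 13 fell and none rose (median -0.67), with 17 without pMT/VitD replicate 4 and 1 and 0 without surgery replicates 1 and 2. Lox, the lysyl oxidase that crosslinks collagen and elastin, was at 33.1 and 33.7 CPM in surgery and 6.03, 7.34, 9.35 and 10.6 CPM in pMT/VitD (log2 fold change -2.003, SE 0.34, adjusted p = 0.00408). Its relative Loxl1 was at 56.6 and 58.4 CPM against 17.4, 11.8, 22.5 and 20.1 CPM (log2 fold change -1.68, SE 0.29, adjusted p = 0.00458). Both stayed low in every pMT/VitD library. Serpinh1, the collagen chaperone, was at 276 and 267 CPM against 152, 151, 148 and 182 CPM (log2 fold change -0.78, SE 0.15, adjusted p = 0.00784). Mmp2, a gelatinase, was at 171 and 165 CPM against 77.5, 75.7, 99.7 and 142 CPM (log2 fold change -0.77, SE 0.22, adjusted p = 0.0475). Both had replicate 4 nearest to surgery. Of 21 genes of basement membrane and other collagens 2 fell, Col6a3 (-0.94) and Col6a6 (-0.91), and 9 fell without pMT/VitD replicate 4, 0 without either surgery library. Col4a1, the main chain of the basement membrane, shows that dependence, at 438 and 425 CPM in surgery and 227, 205, 259 and 395 CPM in pMT/VitD (log2 fold change -0.67, adjusted p = 0.135, and -0.91, adjusted p = 0.0241, without replicate 4). Of 19 fibroblast and myofibroblast genes 5 fell (median -0.52), 8 without pMT/VitD replicate 4 and 1 without either surgery library. Cthrc1, a secreted protein of activated fibroblasts, was at 4.26 and 3.55 CPM against 0.821, 0.7601, 0.43004 and 0.195 CPM (log2 fold change -2.82, SE 0.60, adjusted p = 0.0138). Mfap4, a microfibril protein, was at 80.1 and 81.02 CPM against 30.4, 24.1, 28.9 and 23.6 CPM (log2 fold change -1.59, SE 0.23, adjusted p = 0.00204). The fibroblast markers Pdgfra, Dpt and Pi16 summed to 191 to 231 CPM in pMT/VitD and 299 to 300.5 CPM in surgery, and none of them was called.

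Fewer genes of the other cells of the tissue passed. Of all genes 2.4% rose and 5.03% fell, and 5.04% and 7.74% without pMT/VitD replicate 4. A single called gene, as in the erythroid, tendon and neuron lists, is too few to set a list apart from these shares. Of 22 endothelial genes Lyve1, a receptor of lymphatic vessels and some macrophages (-1.27), Apln, a peptide of sprouting vessels (-1.17), Tie1 (-0.54) and Esam (-0.40) fell, and Vegfa, the vessel growth factor, rose from 52.9 and 54.6 CPM to 80.9, 76.5, 145 and 75.8 CPM (log2 fold change 0.81, SE 0.23, adjusted p = 0.0467), with replicate 3 far above the rest. Without surgery replicates 1 and 2 the lower calls were 2 and 1, and none rose in either case. The vessel markers Pecam1, Cdh5 and Kdr summed to 120 to 163 CPM in pMT/VitD, around the 155 to 156 CPM of surgery. Of 19 Schwann cell and myelin genes Cnp (-0.81) and Pmp22 (-0.46) fell, 3 without pMT/VitD replicate 4 and 1 without either surgery library. Of 15 adipocyte genes Scd, the stearoyl-CoA desaturase (-1.95), and Cfd, adipsin (-0.70), fell, while the 4 markers summed to 18.1 to 32.3 CPM in pMT/VitD and 18.6 to 19.9 CPM in surgery. Of 9 erythroid genes Alas2, the haem synthesis enzyme of red cells, rose from 3.83 and 2.96 CPM to 8.41, 9.102, 3.89 and 8.19 CPM (log2 fold change 1.13, SE 0.29, adjusted p = 0.0337). Hbb, a beta globin with close copies, was at 212 and 214 CPM against 637, 705, 258 and 435 CPM (log2 fold change 1.26, adjusted p = 0.0613), with replicates 1 and 2 highest. Of 11 tendon, cartilage and bone genes Alpl, an alkaline phosphatase, rose (1.04). Tnmd, a marker of tendon, was above surgery (2.52 and 3.11 CPM) in replicates 1 and 2 (8.298 and 7.17 CPM) and below it in replicates 3 and 4 (1.91 and 0.876 CPM). Of 9 neuron and spinal cord genes Map2 fell (-0.88), near the limit of detection. Without either surgery library 0 genes of the adipocyte, erythroid, tendon and neuron lists were called. Without pMT/VitD replicate 4 the counts were 3 lower for adipocyte, 2 higher for erythroid, 2 higher for tendon and 1 lower for neuron genes. The part of blood, tendon or fat in the samples was not tested.

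Of 25 cell cycle genes 24 had negative estimates and 4 fell (median -0.66), 5 without pMT/VitD replicate 4 and 0 without either surgery library. Over all genes tested 50.1% of estimates were negative, 5.03% of genes fell and 2.4% rose. Mki67, which marks dividing cells, was at 8.74 and 9.08 CPM in surgery and 5.06, 3.91, 4.54 and 3.72 CPM in pMT/VitD (log2 fold change -1.05, SE 0.27, adjusted p = 0.0307). Mcm5 (-1.18) and Mcm3 (-1.13), parts of the replicative helicase, and the cyclin Ccna2 (-0.95) fell from under 4 CPM. The exception in sign was Tpx2, a spindle protein, at 28.3 and 27.3 CPM against 61.8, 74.99, 43.99 and 43.4 CPM (log2 fold change 1.01, adjusted p = 0.128). Of 19 p53 targets Cdkn1a and Eda2r, a receptor of the TNF family raised in wasting muscle (-2.08), fell, and the death receptor Fas (0.65) and Tigar, a regulator of sugar breakdown (0.49), rose. Without pMT/VitD replicate 4, 2 p53 targets were higher and 4 lower, and without either surgery library 0 were higher and 1 lower. Of 31 genes of the Bcl2 family and caspases 2 fell and 3 rose. Apaf1, the scaffold of the apoptosome, was among those that fell (log2 fold change -0.58). Birc3, an inhibitor of apoptosis (0.66), Endog, a mitochondrial nuclease (0.50), and Bcl2l2, a survival member of the family (0.32, but -0.01 with library size alone), rose. In this list 4 fell and 3 rose without pMT/VitD replicate 4, and none was called without either surgery library.

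Among lists of energy metabolism, glycolysis held the most called genes. Of 27 genes of glycolysis and glycogen 7 rose and none fell (median 0.54). Of all genes 2.4% rose, and 5.04% without pMT/VitD replicate 4. Without pMT/VitD replicate 4, 12 rose and 1 fell, and without either surgery library none was called. Ppp1r3c, which brings protein phosphatase to glycogen, was at 244 and 246 CPM in surgery and 595, 661, 539 and 605 CPM in pMT/VitD (log2 fold change 1.29, SE 0.23, adjusted p = 0.00539). Slc16a3, the lactate exporter of fast fibres, was at 164 and 167 CPM against 324, 322, 318 and 313 CPM (log2 fold change 0.95, SE 0.15, adjusted p = 0.00295), a spread among the 4 that was small beside the gap to surgery. Pgam2, the muscle phosphoglycerate mutase, was at 2663 and 2552 CPM against 4983, 5345, 4557 and 3567 CPM (log2 fold change 0.82, SE 0.22, adjusted p = 0.0382), with replicate 4 lowest. Pfkfb1 (0.84) and Pfkfb4 (0.81), which set the level of a signal for phosphofructokinase, rose too. The abundant Aldoa and Gapdh missed the threshold with all libraries (log2 fold changes 0.81 and 0.72, adjusted p = 0.0543 and 0.0683) and passed it without replicate 4 (0.0388 and 0.0402). The list's medians in pMT/VitD replicates 1 to 4 were 0.50, 0.54, 0.50 and 0.45 above the surgery mean in log2 CPM.

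In the respiratory chain replicate 4 parted from the others. The counts of signs here stand beside 50.1% negative estimates over all genes tested. Those of calls stand beside 2.4% of all genes that rose, and 5.04% without pMT/VitD replicate 4. All 38 complex I subunits of the nuclear genome had positive estimates (median log2 fold change 0.50), and 0 were called with all libraries and 9 without pMT/VitD replicate 4. Their medians were 0.70, 0.71 and 0.46 above the surgery mean in replicates 1 to 3 and 0.00 in replicate 4. Ndufb9 shows the pattern, at 357 and 344 CPM in surgery and 631, 613, 518 and 364 CPM in pMT/VitD (log2 fold change 0.60, adjusted p = 0.166). Of 42 subunits of complexes II to V 39 had positive estimates (median 0.44), with 0 called and 6 without replicate 4, and medians per library of 0.57, 0.64, 0.37 and 0.03. Cox4i1, a subunit of cytochrome oxidase, was at 741 and 709 CPM against 1158, 1137, 978 and 730.1 CPM (log2 fold change 0.46, adjusted p = 0.258). These are short transcripts. Once each library's trend with length was taken out, the medians were 0.22 for complex I and 0.21 for complexes II to V. Complex I then had 4 genes called higher and 0 lower, and complexes II to V had 3 higher and 1 lower. Of the 13 protein genes of mitochondrial DNA, all above 0 in estimate (median 0.82), 1 rose with all libraries and 4 without replicate 4. The one, ND4L, was at 503 and 561 CPM against 1013, 961, 993 and 834 CPM (log2 fold change 0.84, SE 0.23, adjusted p = 0.0445). COX1, the most abundant of them, was at 30878 and 31479 CPM against 59900.4, 44117, 58516 and 39863 CPM (log2 fold change 0.70, adjusted p = 0.193), with replicates 1 and 3 highest. The call of ND4L was lost without either surgery library, without pMT/VitD replicate 1, 2 or 3, and with the length trend taken out. The annotation here is that of the rat, and whether human transcripts of the injected mitochondria add to these counts was not tested.

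**Figure D3:**
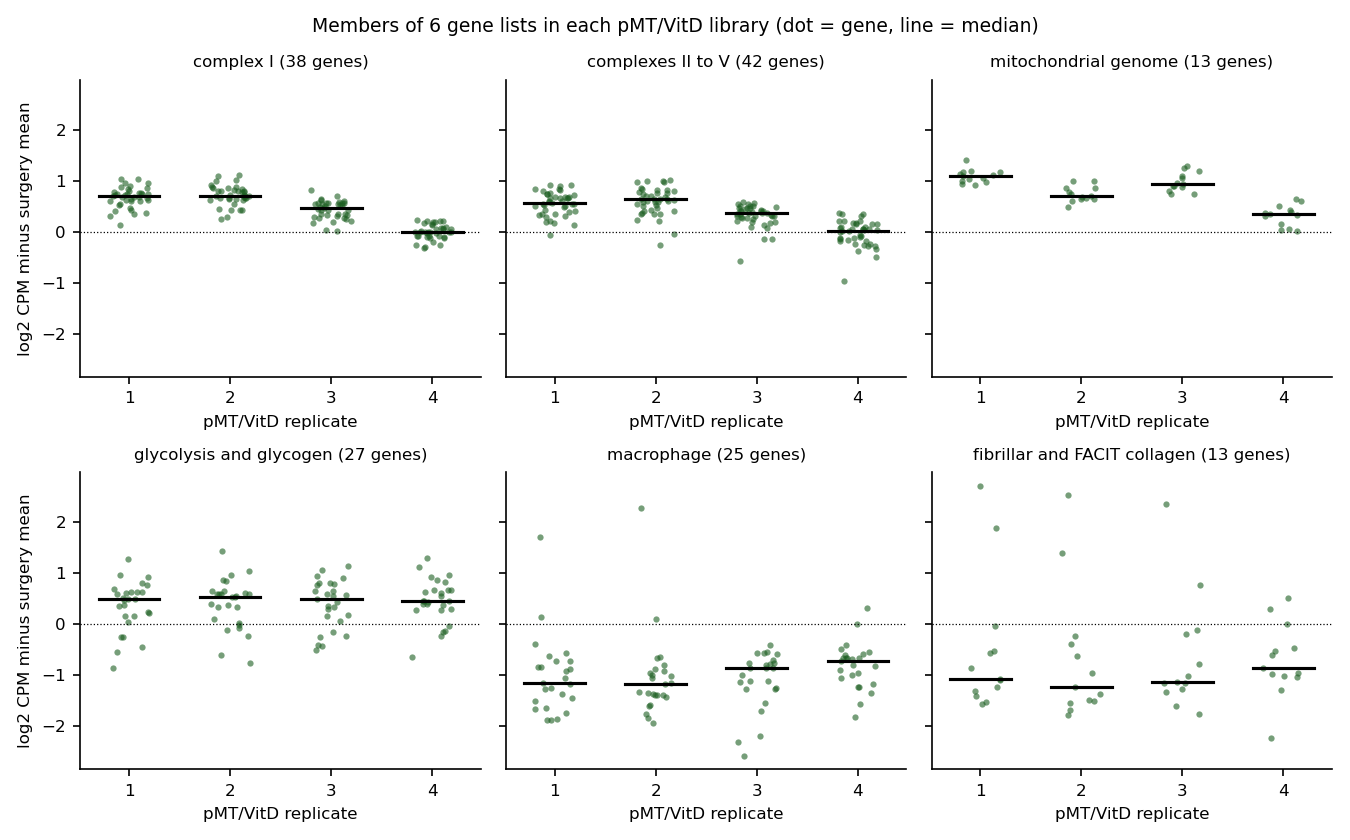
Each dot is a gene of the list named above the panel, placed at its log2 CPM in one pMT/VitD library (x axis, replicates 1 to 4) minus the mean of the 2 surgery libraries (y axis), with a line at the median. The complex I median is 0.70, 0.71 and 0.46 in replicates 1 to 3 and 0.00 in replicate 4, while the glycolysis and macrophage medians keep their side of 0 in all 4.

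Few other genes of muscle metabolism and structure passed. Of 28 genes of fatty acid oxidation Pnpla2, the triglyceride lipase, rose from 35.2 and 36.6 CPM to 47.3, 49.3, 45.6 and 45.7 CPM (log2 fold change 0.39, SE 0.09, adjusted p = 0.0218), and Eci1, an enzyme of the oxidation of unsaturated fats (0.56), also rose (3 without pMT/VitD replicate 4, none without either surgery library). Of 27 genes of mitochondrial biogenesis Timm23, the channel of protein import, rose from 169.6 and 169 CPM to 299.6, 329.9, 302 and 239 CPM (log2 fold change 0.79, SE 0.20, adjusted p = 0.0284). Ppargc1a, the coactivator that drives biogenesis, was at 17.3 and 18.3 CPM against 24.7, 24.7, 19.4 and 22.6 CPM, above surgery in all 4 libraries, and did not pass (log2 fold change 0.36, adjusted p = 0.0797). None of 15 fast fibre genes was called (median 0.48, 1 higher without pMT/VitD replicate 4). Myh4, the fastest myosin, was at 13948 and 14031 CPM against 28254, 27376, 19034 and 24113 CPM (log2 fold change 0.82, adjusted p = 0.205). None of 12 slow fibre genes was called either (median 0.19), and Myl3, a slow light chain, was at 1518 and 1351 CPM in replicates 1 and 2 and 661 and 665 CPM in replicates 3 and 4 against 756 and 744 CPM in surgery. Of 27 calcium handling genes Orai1, the channel of store-operated entry, rose from 69.4 and 67.2 CPM to 106, 114, 112 and 88.3 CPM (log2 fold change 0.62, SE 0.15, adjusted p = 0.0225). Of 29 ubiquitin ligases and autophagy genes Trim54, a ring finger protein of the sarcomere (0.86), rose, and the protease Ctsb (-0.82) and Fbxo30 fell. Of 26 genes of AMPK, Akt, FoxO and mTOR signalling Prkab1, a regulatory subunit of AMPK, rose (0.41). A single gene in a list of this size is near the 2.4% of all genes that rose. The same holds for Timm23, Orai1, Trim54 and Prkab1 alike. That share was 5.04% without pMT/VitD replicate 4. Without pMT/VitD replicate 4 the counts were 2 higher for biogenesis, 2 higher for calcium handling, 4 higher and 3 lower for ubiquitin ligases and autophagy, and 2 higher and 1 lower for AMPK to mTOR signalling. Without either surgery library all of these were 0.

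Some transcripts encode proteins that were measured by blot in the pMT rats. Of these, Des rose and Myog fell, as given above, and the remaining 8 did not pass the test. The paper reports that desmin and myogenin protein were both lower after surgery and restored after pMT. The fall of Myog RNA here is thus opposite in direction to the blot, which measured protein in rats without vitamin D. Prkaa2, the main catalytic subunit of AMPK in muscle, was at 209 and 225 CPM in surgery and 239, 268, 223 and 330.2 CPM in pMT/VitD (log2 fold change 0.29, adjusted p = 0.55), and Prkaa1 had -0.18 (adjusted p = 0.557). Akt1 was at 100.4 and 102 CPM against 122, 127, 112 and 117 CPM, above surgery in every library (log2 fold change 0.24, adjusted p = 0.196). Foxo3, a transcription factor of atrophy, was at 5.05 and 5.05 CPM against 2.77, 3.04, 4.19 and 11.5 CPM, with replicates 1 to 3 below surgery and replicate 4 above it. Bax, which opens the outer mitochondrial membrane, was at 9.77 and 9.29 CPM against 12.2, 12.1, 9.65 and 7.01 CPM (log2 fold change 0.10, adjusted p = 0.844), with replicate 4 lowest. Bcl2, its opponent, was below 1 CPM in all 6 libraries.

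The circadian clock moved in both directions. Of 19 clock genes 3 rose and 4 fell, beside 2.4% and 5.03% of all genes. The counts were the same without pMT/VitD replicate 4, where 5.04% of all genes rose and 7.74% fell. Arntl, the activator of the clock, was at 12.99 and 12.1 CPM in surgery and 22.1, 23.8, 22.6 and 27.2 CPM in pMT/VitD (log2 fold change 0.93, SE 0.15, adjusted p = 0.00295). Its relative Npas2 was at 4.03 and 3.57 CPM against 6.94, 4.82, 8.62 and 6.54 CPM (log2 fold change 0.82, SE 0.20, adjusted p = 0.0233). Nfil3, a repressor in the output of the clock, was at 29.3 and 29.5 CPM against 61.3, 71.4, 46.2 and 92.3 CPM (log2 fold change 1.20, SE 0.25, adjusted p = 0.0128), with replicate 4 highest. Those that fell are known targets of Arntl and its partner. Dbp was at 54.4 and 52.3 CPM against 22.5, 19.3, 27.1 and 15.5 CPM (log2 fold change -1.34, SE 0.18, adjusted p = 0.00141). Ciart was at 2.27 and 2.31 CPM against 0.821, 0.816, 0.731 and 0.954 CPM (log2 fold change -1.46, SE 0.23, adjusted p = 0.00278). Nr1d2 (-0.47) and Per2 (-0.63, named after its values were seen) fell less. Without surgery replicates 1 and 2 the calls were 1 and 0 higher and 2 and 2 lower. The hour at which muscle was taken is not given in the labels, so hour and group cannot be told apart.

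Beside the lists that follow, 2.4% of all genes rose and 5.03% fell, or 5.04% and 7.74% without pMT/VitD replicate 4. A single gene in a list of 22 or 23 is near these shares, which holds for Klf6, Atf4, Hsp90b1 and Keap1 below. Of 14 genes of vitamin D metabolism and response tested 1 rose and none fell (median 0.21), also 1 without pMT/VitD replicate 4 (median 0.01). It was Cyp27a1, an enzyme that hydroxylates cholecalciferol and cholesterol, at 19.5 and 19.1 CPM in surgery and 29.7, 25.3, 31.8 and 26.6 CPM in pMT/VitD (log2 fold change 0.56, SE 0.12, adjusted p = 0.0181). Rxrg, a partner of the vitamin D receptor, was above surgery in all 4 libraries, at 59.2 and 57.5 CPM against 88.8, 93.8, 91.3 and 91.9 CPM, without passing the test (log2 fold change 0.65, adjusted p = 0.135). Vdr, the receptor itself, named after its values were seen, was at 0.426 and 0.341 CPM against 0.562, 0.371, 0.688 and 0.856 CPM (log2 fold change 0.69, adjusted p = 0.345). It was under 1 CPM in all 6 libraries. Of 23 early response genes, which cells switch on within minutes of a stimulus and also during dissection, Klf6 fell (-0.71), and 11 fell without pMT/VitD replicate 4. The medians were 0.58, 0.64 and 0.92 below the surgery mean in replicates 1 to 3 and 0.50 above it in replicate 4. Nr4a1, for example, was at 147 and 145 CPM in surgery and 100.0, 102, 124 and 215 CPM in pMT/VitD. Of 22 heat shock and unfolded protein genes Atf4, the activator of the integrated stress response, rose from 281 and 283 CPM to 533, 550.2, 434 and 427 CPM (log2 fold change 0.79, SE 0.18, adjusted p = 0.0181), and Hsp90b1, a chaperone of the endoplasmic reticulum, fell (-0.45). Of 22 metallothionein and antioxidant genes Mt1, a metal-binding protein, fell from 5.52 and 5.78 CPM to 1.66, 1.95, 1.29 and 1.499 CPM (log2 fold change -1.82, SE 0.37, adjusted p = 0.012), Ucp2 fell (-0.72) and Keap1 rose (0.32, but -0.01 with library size alone). Without either surgery library 0 genes of these lists were called.

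**Figure D4:**
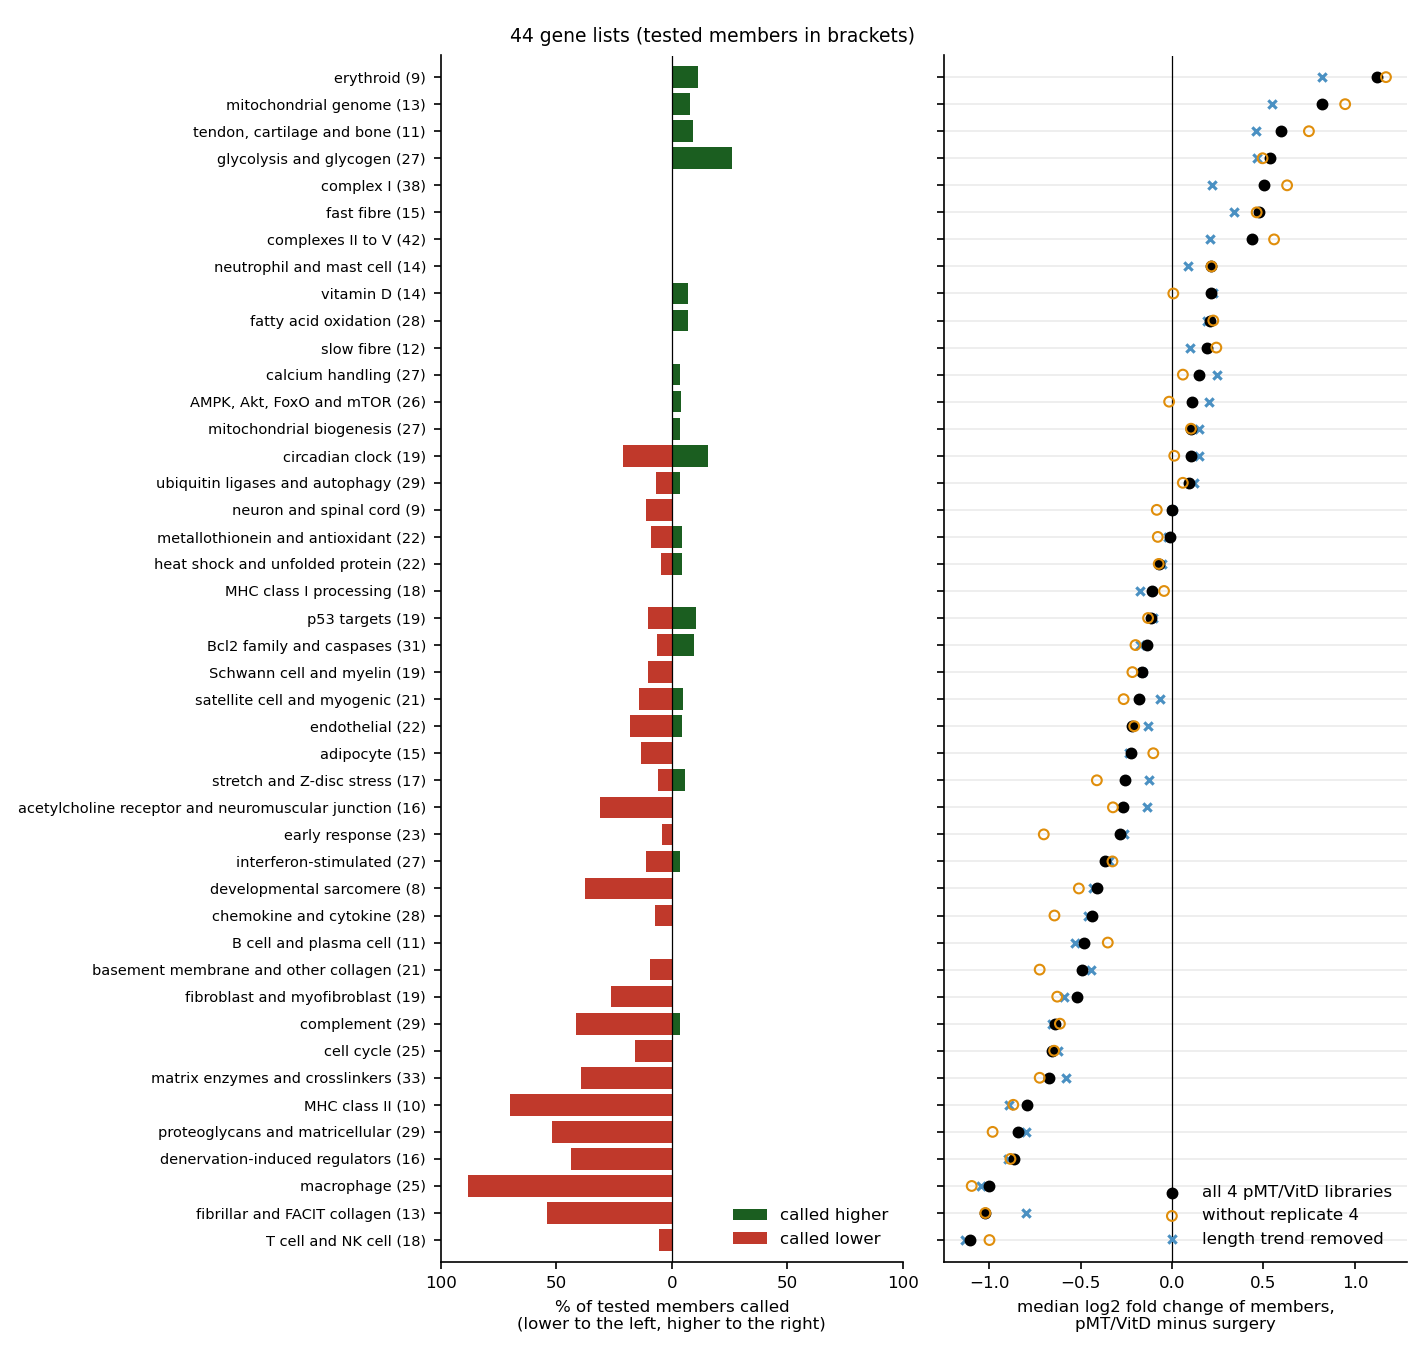
For 44 gene lists, the left panel gives the percent of tested members called higher (right of 0) or lower (left of 0) in pMT/VitD than in surgery, and the right panel the median log2 fold change of members with all libraries (filled), without pMT/VitD replicate 4 (open) and with the length trend removed (cross). With all libraries macrophage genes have the highest share called, 22 of 25 lower, and the median of complex I drops from 0.50 to 0.22 once the length trend is removed.

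The medians of several lists depend on the scaling. With library size alone, where the median of all genes is -0.325, those of slow fibre, fatty acid oxidation, mitochondrial biogenesis, AMPK to mTOR signalling, ubiquitin ligase and autophagy, vitamin D, clock, calcium handling, and neutrophil and mast cell genes turn negative. Those of glycolysis (0.20), complex I (0.16), complexes II to V (0.09), the mitochondrial genome (0.48), fast fibre (0.14), erythroid (0.79) and tendon genes (0.25) stay above 0.

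The other groups place these levels. No gene was called between pMT/VitD and control by the quasi-likelihood test, where 496 (2.88%) had an unadjusted p under 0.05. DESeq2 called 0, and limma voom with quality weights called 1865. With 2 control libraries an absence of calls does not show that levels are equal. For the genes above the values lie side by side. Ankrd1 was at 10.3 and 10.4 CPM in control, Myog at 20.5 and 18.3 CPM, C4a at 8.66 and 8.53 CPM, Postn at 59.6 and 67.3 CPM and Ppp1r3c at 573 and 605 CPM. Each of these control levels is within or close to the range of the 4 pMT/VitD libraries. No gene was called between pMT/VitD and pMT either, with 1737 at an unadjusted p under 0.05, 89 called by DESeq2 and 6617 by limma voom. Without replicate 4 of both groups the quasi-likelihood test called 3136 of 17182 (18.3%), so the count turns on these 2 libraries. In pMT, Ankrd1 was at 14.1, 14.4, 15.3 and 7.16 CPM, Myog at 23.9, 22.8, 19.4 and 28.6 CPM and C4a at 9.03, 9.16, 9.32 and 6.01 CPM. Complex I medians in pMT replicates 1 to 4 were 0.18, -0.03, -0.24 and 0.65 from the surgery mean, so replicate 4 was the highest in pMT and the lowest in pMT/VitD. These comparisons share the pMT/VitD libraries with the comparison against surgery.

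Against vitamin D alone, 3766 genes were called (21.9%), 1662 higher and 2104 lower in pMT/VitD. Since surgery cancels in that contrast, it is also the test of whether the changes of the 2 groups from surgery differ. Of the macrophage genes 22 of 25 were lower than in VitD, of the proteoglycans 21 of 29, of the complement genes 16 of 29 lower and 1 higher, of the cell cycle genes 16 of 25 lower and 1 higher, and of the glycolysis genes 17 of 27 higher and 2 lower. Ankrd1 was at 752, 267 and 84.7 CPM in the 3 VitD libraries (log2 fold change pMT/VitD minus VitD -5.28, adjusted p = 0.000169). Postn was at 613, 318 and 196 CPM (-2.64, adjusted p = 0.000292) and Slc16a3 at 116, 152 and 179 CPM (1.10, adjusted p = 0.000244). In each of these genes VitD replicate 1 lay furthest from pMT/VitD, VitD replicate 2 was near surgery, and replicate 3 nearest to pMT/VitD. Without VitD replicate 1 the count of called genes was 1855.

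**Figure D5:**
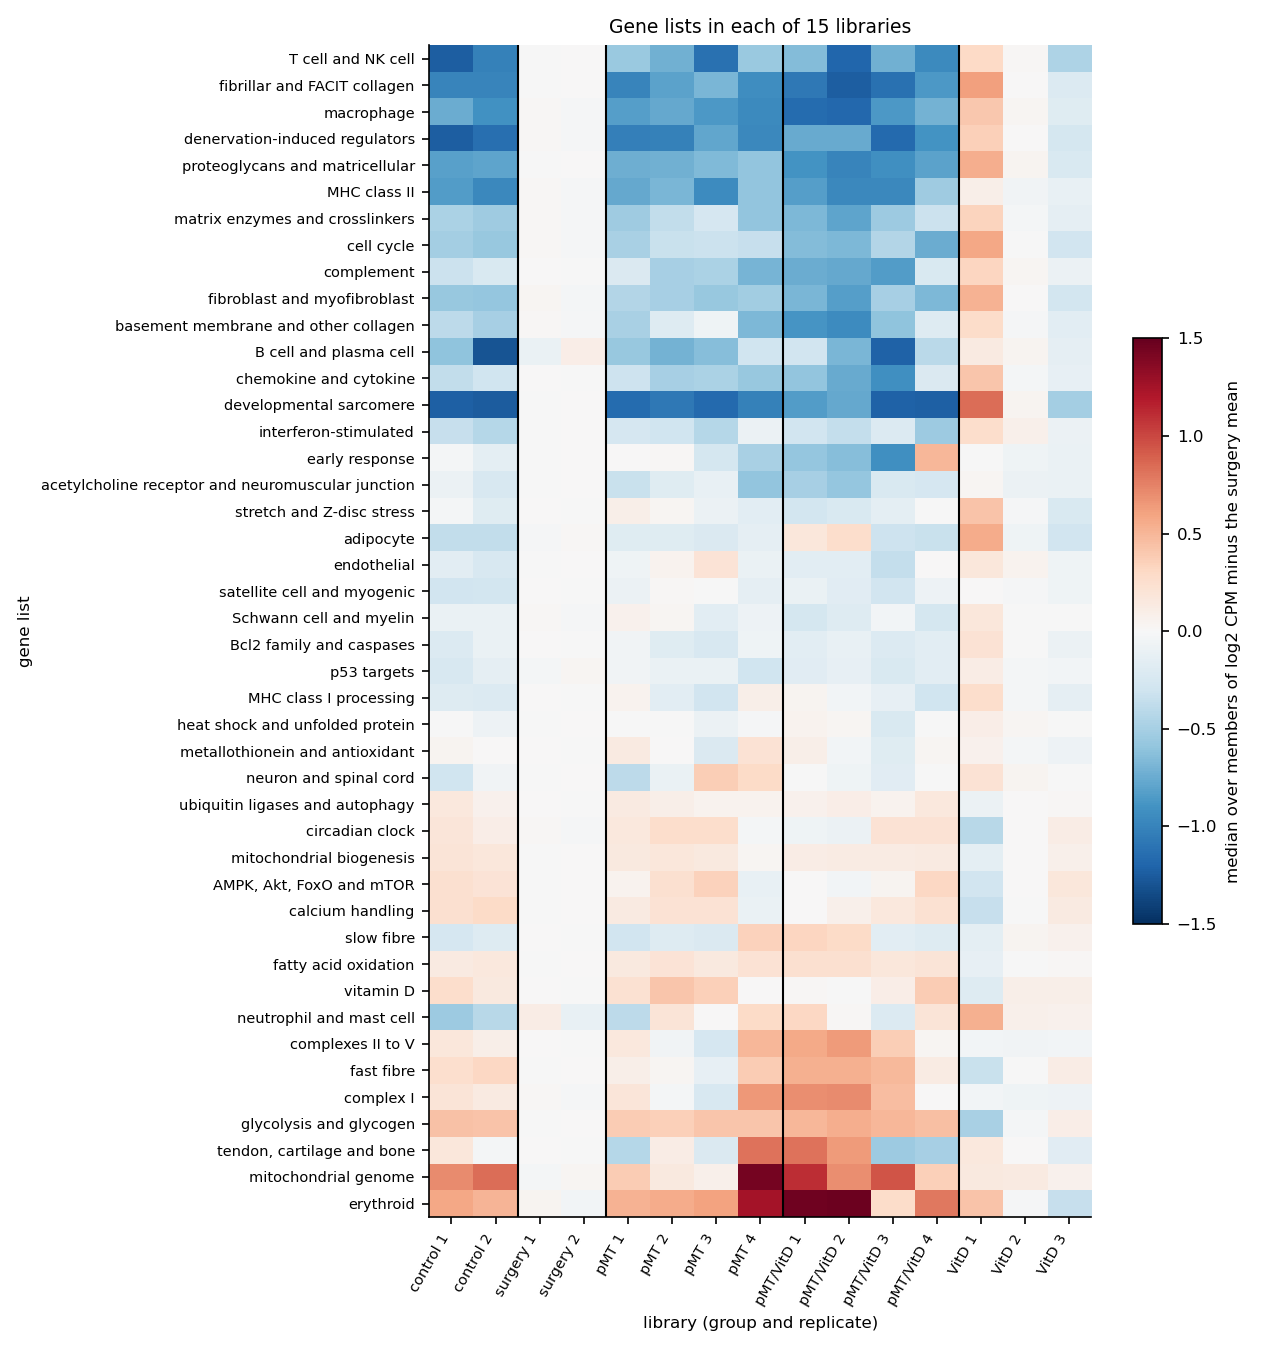
Median over the members of each of 44 gene lists of log2 CPM minus the mean of the 2 surgery libraries, in each of 15 libraries (columns, by group and replicate), on a colour scale from -1.5 to 1.5. The macrophage row is at -0.71 to -1.17 in the 4 pMT/VitD libraries. In the complex I and early response rows pMT/VitD replicate 4 stands apart from replicates 1 to 3.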

How the data were processed

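Multifidus RNA of 15 libraries was measured, and groups were taken from the labels. The authors aligned trimmed reads to the rat genome rn6 and deposited StringTie read counts, FPKM and TPM per gene in one table (Trimmomatic 0.38, HISAT2 2.1.0, SAMtools 1.9, StringTie 2.1.3b and edgeR 3.40.2 per the submitters' processing notes). Strand and the handling of multi-mapped reads were not given in the sources used here. Counts were tested, TPM served only to derive a relative length (counts divided by TPM), and FPKM values were not used. Each sample column was mapped by name, with 0 left over. Every entry of a repeated symbol was fitted and counted, and only lists and genes looked up by symbol took the most abundant entry. Genes kept by filterByExpr were fitted with edgeR 4.0.16 (R 4.3.3; TMM, quasi-likelihood F-test over 15 libraries in 5 groups, no covariate, Benjamini-Hochberg adjusted p under 0.05). Log2 CPM used a prior count of 2. Alternatives used DESeq2 1.42.0 and limma 3.58.1. The procedure was tested on simulated data. Named genes were the 10 furthest called genes in each direction (mean log2 CPM at least 1), up to 3 abundant and 5 called members of each list, and the blotted proteins' transcripts. The libraries compared and the gene lists were chosen with earlier results of these data known. A few genes of these lists are not reported here.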

Additional observations from a re-analysis of the deposited data

Results flagged for a closer look

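Among 202 sets of 4 pMT/VitD values examined (library factors, named genes and list means), 11 had a library lying far from the other 3 by Dixon's criterion. Chance alone gives about 1 in 20, or 10.1 here, and 8 of the 11 were in replicate 4. Its TMM factor was 0.982 against 0.849 to 0.867 in the others. Its mean log2 CPM was 4.92 over AMPK, Akt, FoxO and mTOR genes (others 4.45 to 4.52) and 4.03 over early response genes (others 2.66 to 2.81). By gene, it stood at 7.75 CPM for Adgre1 (others 4.24 to 4.75), 60.4 CPM for Eci1 (others 77.8 to 81.3), 11.5 CPM for Foxo3 (others 2.77 to 4.19), 0.117 CPM for Gdf5 (others listed at 0) and 182 CPM for Serpinh1 (others 148 to 152). Replicate 3 stood at 145 CPM for Vegfa (others 75.8 to 80.9) and at a mean log2 CPM of 4.96 over metallothionein and antioxidant genes (others 5.16 to 5.19), and replicate 1 at 21.5 CPM for Cnp (others 19.1 to 19.2).

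The changes of the pMT/VitD and VitD groups from surgery differed in 3766 genes by the quasi-likelihood test of pMT/VitD against VitD, in which surgery cancels.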

How the results depend on the processing

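Of 1279 genes called between pMT/VitD and surgery, the count became 3250 with library size alone, 2249 with DESeq2, 6800 with limma voom and quality weights, 836 with only these groups in the fit and 77 against a fold threshold of 1.5. Leaving out 1 library gave 122 to 2199, and leaving out replicate 4 of both pMT and pMT/VitD gave 3462. Against VitD the 3766 became 5758 with library size alone, 8406 with voom, 1816 with the 2 groups alone, 307 against the fold threshold, 1855 to 4561 with 1 library left out and 5497 without both replicate 4s. Against pMT the count of 0 became 89 with DESeq2, 6617 with voom and 3136 without both replicate 4s, and stayed 0 with any 1 library left out. Against control the 0 became 1865 with voom, 0 to 2 with 1 library left out and 11 without both replicate 4s. These fits without both replicate 4s against pMT, VitD and control were chosen after seeing the data. By the DEG rule 870 became 1501 with library size alone and 563 with at least 10 counts in every library, 595 with the adjusted p, and 687 to 1145 with 1 library left out. RLE factors, leaving out mitochondrial genes and the other filters kept the counts against surgery within 1.5 times. The cause of these shifts was not tested.

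With a replicate block, 350 genes were called against surgery. Surgery and pMT/VitD share only replicates 1 and 2, whose deviations correlated by 0.0811 and 0.0168, so the numbers were not taken to pair libraries.

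Of 122 called genes among the 156 named, 88 and 93 lost their call without surgery replicates 1 and 2, 63 with the replicate block, and 1 without pMT/VitD replicate 4, where 3 gained one. Without pMT/VitD replicates 1, 2 and 3 the lost calls were 35, 40 and 22. Against the fold threshold of 1.5 they were 95, and with only the 2 groups in the fit 33. The direction turned for Akt1 (-0.0851), Bax (-0.24), Bcl2l2 (-0.0112), Keap1 (-0.00974), Prkaa2 (-0.028) and Trim63 (-0.18) with library size alone, and for Scn4a (-0.24) and Foxo3 (-0.61) with voom. Foxo3 also turned without pMT/VitD replicate 4 (-0.61), with or without pMT replicate 4 (-0.61), while its leave-one-out values ran from -0.61 to 0.31.

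Every comparison with surgery rests on 2 libraries, which alone give little information on their spread. Genes under 1 CPM, receptor subunits and lymphocyte genes among them, rest on few reads, and counting error limits their differences.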
